A study of Mus musculus with 8 samples.

Results

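Bone morphogenetic protein (BMP) signalling was followed in the gene-level counts through 10 genes: the ligands Bmp2, Bmp4, Bmp5 and Bmp7, the target genes Id1, Id2, Id3 and Id4, and the inhibitory Smads Smad6 and Smad7. The members were taken by gene symbol, and all 10 were found among the 24421 genes listed for every library. The cells were R1, a pluripotent mouse embryonic stem cell (ESC) line, taken in the undifferentiated state (Undiff) and at the end of a differentiation protocol (Day4). Polyadenylated RNA of each state was read as long single molecules with 2 kits of Oxford Nanopore Technologies (ONT), and each combination of kit and state had 2 replicates, which gave 8 libraries in 4 groups. In the ONT Direct RNA kit the RNA strand itself is read, whereas in the ONT cDNA kit the RNA is copied and amplified by PCR first.

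The Day4 cells were embryoid bodies, floating aggregates of ESCs, grown for 4 days without leukaemia inhibitory factor and then treated for 4 days with retinoic acid (RA), an inducer of differentiation. The sources give the RA dose both as 2 µM and as 2 mM, so no dose is attached to the results. For Undiff the labels speak of embryoid bodies and of 4 days in ESC medium, while the methods of the study describe cells kept in ESC medium with leukaemia inhibitory factor. Both states are of one cell line with no transgene named in the labels. The replicates were grown and treated separately, and the design has no group without RA at the same age, so time in culture, aggregation and RA cannot be told apart.

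BMPs are secreted ligands of the TGF-beta family that bind pairs of type I and type II receptor kinases. The receptors phosphorylate Smad1, Smad5 and Smad9, which join Smad4, enter the nucleus and bind target genes, among which the Id genes are the best-known. Id proteins hold basic helix-loop-helix (bHLH) factors in pairs that cannot bind DNA, and in mouse ESCs grown with serum BMP4 and Id proteins are known to help keep differentiation in check. Smad6 and Smad7 are themselves targets of the pathway and act back on it as inhibitors.

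Upstream sequence is shown for the members whose counts differed most between states and for Bmp4, the ligand with the most reads in Undiff, because these are the genes the results below return to. RefSeq windows of 250 bases before the start site (assembly GRCm38.p6) were matched for 6 of the 10 genes: Id2, Id3, Id4, Smad6, Bmp4 and Bmp5. Bmp2, Bmp7, Id1 and Smad7 were not matched. Letters searched on both strands were GTCT (reverse complement AGAC), the core of the Smad box, and the GC-rich words GGCGCC, which is its own reverse complement, and GGAGCC, with the reverse complement GGCTCC, both described in BMP-responsive elements. Matches are in capitals in the sequences, all of which run 5′ to 3′ on the strand of the gene. The Smad6 and Bmp4 windows hold no annotated exon and are given whole, while the Id2 sequence leaves out bases in annotated exons. For Id3, whose window lies in an annotated exon, only the surroundings of its GTCT matches are given.
Smad6, chr9:64022060-64022309, minus strand: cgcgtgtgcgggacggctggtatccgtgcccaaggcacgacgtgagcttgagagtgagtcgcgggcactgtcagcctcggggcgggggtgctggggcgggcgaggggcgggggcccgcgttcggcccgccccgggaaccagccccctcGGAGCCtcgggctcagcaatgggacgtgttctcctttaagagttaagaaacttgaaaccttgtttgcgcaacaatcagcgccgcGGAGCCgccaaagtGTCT
Bmp4, chr14:46390670-46390919, minus strand: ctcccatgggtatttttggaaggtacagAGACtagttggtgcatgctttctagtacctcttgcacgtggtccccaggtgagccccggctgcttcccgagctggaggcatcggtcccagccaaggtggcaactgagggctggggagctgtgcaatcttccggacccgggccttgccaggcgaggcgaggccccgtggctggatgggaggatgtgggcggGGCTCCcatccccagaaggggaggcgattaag
Id2, chr12:25096254-25096342, minus strand: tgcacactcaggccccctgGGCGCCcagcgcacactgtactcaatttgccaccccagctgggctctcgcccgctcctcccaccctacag
Id3, chr4:136143646-136143669, plus strand: cctcggcgtcAGACcagcctaagg
Id3, chr4:136143744-136143767, plus strand: acccttggcgGTCTgttttgaata

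The Id3 matches began at positions -166 and -68 from the start site, and a GGCTCC stood at -187. In Smad6 the matches were GGAGCC at -102 and -18 and GTCT at -4, and no GGCGCC was found. The Bmp4 window held AGAC at -222 and GGCTCC at -32. In Id2 the GGCGCC stood at -231, and 2 further matches, GGAGCC at -88 and AGAC at -23, fell in the bases left out. No match overlapped another. Of 32851 such windows over all genes, on either strand 82.9% held GTCT, 26.0% held GGAGCC and 9.59% held GGCGCC, so only the last word was uncommon. GGCGCC was also found in Id4, at -148. The Id2 and Id4 windows were 62.8% and 75.6% GC, against a median of 52.4% over all windows. These matches are descriptions of letters and carry no measurement of binding.

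The depth of the libraries was low for genes of this kind. Reads on genes ranged from 283461 to 2088592 per library, and between 38.1% and 61.7% of the reads in a library were given to no gene. Levels are given as CPM, reads per 1000000 reads on genes, and 3 reads, the smallest number taken as a level, came to between 1.44 and 10.6 CPM. Replicate 2 was the deeper library in every group. A set of 6 pluripotency markers summed to between 2675 and 5749 CPM in the Undiff libraries and to between 7.59 and 146 CPM in the Day4 libraries, so the libraries matched their state labels. Changes between states were tested within each kit with DESeq2, and a gene was called where the adjusted p-value did not exceed 0.05, the fold change was 1 or more in either direction on the log2 scale and the mean normalized count reached 5.

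Between the states, Id2 and Id3 rose with both kits, Smad6 rose with Direct RNA, and no member was called lower with either kit. With Direct RNA 3 of 10 members were called higher, where 9.54% of all genes with the minimum mean were called higher and 7.67% lower. With cDNA 2 of 10 were called higher, where 8.69% of all genes were called higher and 9.24% lower. Both genes called with both kits, Id2 and Id3, stand against 6.19% of the genes that had the minimum mean in both. Bmp2, Bmp5 and Id4 stayed below the minimum mean, which left 7 members that could be called in each kit. Bmp7, and Smad6 with cDNA, reached that mean mostly through Day4. The median log2 fold change of all 10 members was 1.497 with Direct RNA and 0.91 with cDNA, against 0.06 and 0.04 over all genes with a read. These 10 genes were chosen with earlier results of these data known, so the shares and medians are descriptions. In bulk RNA more or fewer cells of a type and more or less RNA per cell cannot be told apart.

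**Figure D1:**
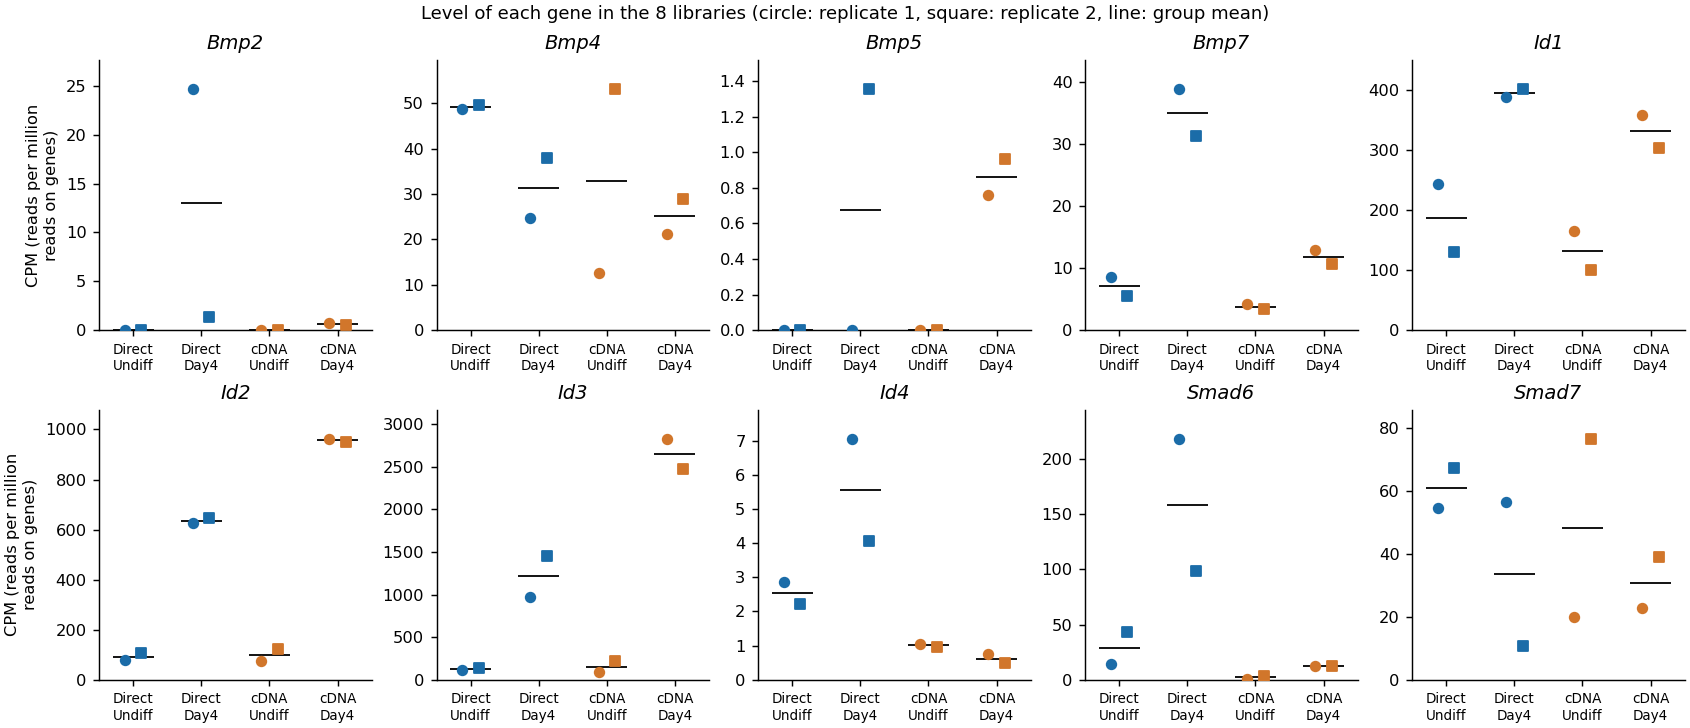
CPM of the 10 genes (reads per 1000000 reads on genes, linear axes that differ between genes) in the 8 libraries, with a circle for replicate 1, a square for replicate 2 and a line for the group mean. Id2 and Id3 in Day4 sit far above Undiff with both kits, and Smad6 sits higher with Direct RNA than with cDNA in both states.

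In the comparison of raw levels, which sets no limit on depth, all Day4 libraries lay above all Undiff libraries for 7 of 10 members with Direct RNA (Bmp2, Bmp7, Id1, Id2, Id3, Id4 and Smad6). Over all genes with a read this held for 31.9%. With cDNA it held for 7 of 10 (Bmp2, Bmp5, Bmp7, Id1, Id2, Id3 and Smad6), against 36.9% of all genes. The Day4 libraries lay below the Undiff libraries for 1 member in each kit, Bmp4 with Direct RNA and Id4 with cDNA, against 25.1% and 19.6% of all genes. For Bmp2, Bmp5 and Id4 these orders rest on 0 to 7 reads per library.

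Among the ligands, Bmp4 was the one with most reads per kb of transcript in every Undiff library. Bmp4 (ENSMUSG00000021835.15, chr14:46383520-46390669 on GRCm38, minus strand) maintains self-renewal of mouse ESCs together with leukaemia inhibitory factor. With Direct RNA it had 48.8 and 49.6 CPM in Undiff (17 and 45 reads) and 24.7 and 38.0 CPM in Day4 (7 and 28 reads). With cDNA it had 12.7 and 53.2 CPM in Undiff (12 and 111 reads) and 21.2 and 28.9 CPM in Day4 (28 and 60 reads). The Direct RNA groups did not overlap, with Undiff higher, whereas with cDNA the Day4 values lay between the Undiff replicates. The log2 fold change was -0.68 (SE 0.68, 95% interval -2.01 to 0.65, adjusted p = 0.716) with Direct RNA and -0.68 (SE 0.67, 95% interval -1.99 to 0.62, adjusted p = 0.707) with cDNA. No change was detected with either kit, and the parts of depth and of the spread between replicates in this were not tested. Without cDNA Undiff replicate 2 the cDNA value turned to 0.51. An exon of Bmp4 overlaps one of Gm15217 on the opposite strand, and since the methods name only the Direct RNA gene counts as strand-specific, cDNA reads of the pair may not be told apart.

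Bmp7 (ENSMUSG00000008999.7, chr2:172868012-172940321, minus strand), a ligand widely used in kidney, eye and skeletal development, was higher in each Day4 library than in each Undiff library of its kit. Direct RNA gave 8.61 and 5.51 CPM in Undiff (3 and 5 reads) and 38.8 and 31.2 CPM in Day4 (11 and 23 reads). In cDNA libraries it had 4.22 and 3.35 CPM in Undiff (4 and 7 reads) and 12.9 and 10.6 CPM in Day4 (17 and 22 reads). The ratio of the group means was 4.96 with Direct RNA and 3.10 with cDNA. The spread that DESeq2 estimated for so few reads was wide, and the log2 fold change came to 2.00 (SE 0.92, adjusted p = 0.165) for Direct RNA and 1.20 (SE 0.94, adjusted p = 0.568) for cDNA. The quasi-likelihood test of edgeR called Bmp7 with Direct RNA (log2 fold change 2.23, adjusted p = 0.00383) and not with cDNA (adjusted p = 0.124).

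Bmp2 and Bmp5 were at or near the limit of detection. Bmp2 (ENSMUSG00000027358.6, chr2:133552159-133562885, plus strand), a ligand of heart and bone formation, had no read in any of the 4 Undiff libraries. In Day4 it had 7 reads (24.7 CPM) and 1 read (1.36 CPM) with Direct RNA and 1 read in each library with cDNA (0.759 and 0.481 CPM). The Direct RNA mean in Day4 was at least 2.1-fold higher than the floor of 3 reads per library in Undiff, a bound that rests on replicate 1. Bmp5 (ENSMUSG00000032179.7, chr9:75775364-75900310, plus strand), a ligand known for its part in the growth of skeletal elements, also had no read in Undiff and between 0 and 2 reads in each Day4 library. No fold is given for Bmp5, or for Bmp2 with cDNA, because both states were at or under the floor. Bmp5 shares exon sequence with Gm26903 on the opposite strand.

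The make-up of the ligand reads followed from these levels. Per kb of transcript, Bmp4 took 91.0% and 94.1% of the reads on the 4 ligands in Direct RNA Undiff and 40.6% and 66.6% in Day4. With cDNA it took 84.2% and 96.6% in Undiff and 72.4% and 81.0% in Day4. Bmp7 took from 3.43% to 15.8% in the Undiff libraries and from 16.7% to 35.9% in the Day4 libraries. The states did not overlap for either gene within a kit, although there were only 16 to 118 reads on all 4 ligands per library, and no test was run on these shares.

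The Id genes held most of the reads on the 10 members. Id3 (ENSMUSG00000007872.3, chr4:136143497-136145755, plus strand), an inhibitor of bHLH factors that responds to BMP, had 118 and 138 CPM in Direct RNA Undiff (41 and 125 reads) and 977 and 1452 CPM in Day4 (277 and 1071 reads). In cDNA it had 91.7 and 216 CPM in Undiff (87 and 452 reads) and 2831 and 2478 CPM in Day4 (3732 and 5147 reads). Every Day4 library lay well above every Undiff library of either kit. The group means were 9.51-fold higher in Day4 with Direct RNA and 17.2-fold higher with cDNA. On the log2 scale the change of Id3 was 3.10 (SE 0.32, 95% interval 2.46 to 3.73, adjusted p = 6.69e-19) with Direct RNA and 3.74 (SE 0.43, 95% interval 2.89 to 4.58, adjusted p = 1.45e-15) with cDNA, both larger than the spread between replicates. It was called with all 4 libraries of a kit and without any 1 of them.

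Id2 (ENSMUSG00000020644.9, chr12:25093799-25097140, minus strand), the member of the family with broad roles in neural and lymphoid lineages, rose in the same direction. Direct RNA gave 77.5 and 106 CPM in Undiff (27 and 96 reads) and 624 and 647 CPM in Day4 (177 and 477 reads). In cDNA the levels were 73.8 and 123 CPM in Undiff (70 and 256 reads) and 964 and 952 CPM in Day4 (1270 and 1977 reads). The Day4 replicates were close to each other in both kits, and the states did not overlap. Day4 means were 6.94-fold and 9.75-fold above Undiff. Its log2 fold change was 2.61 (SE 0.34, 95% interval 1.94 to 3.29, adjusted p = 5.04e-12) with Direct RNA and 2.92 (SE 0.40, 95% interval 2.15 to 3.70, adjusted p = 2.35e-11) with cDNA. Leaving out any 1 library of a kit did not end the call.

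Id1 (ENSMUSG00000042745.9, chr2:152736251-152737410, plus strand), the usual reporter gene of BMP signalling, had the smallest difference of the 3 abundant Id genes. With Direct RNA it had 244 and 130 CPM in Undiff (85 and 118 reads) and 388 and 401 CPM in Day4 (110 and 296 reads). With cDNA the values were 166 and 99.6 CPM in Undiff (157 and 208 reads) and 359 and 304 CPM in Day4 (473 and 631 reads). All Day4 libraries exceeded all Undiff libraries, and the Undiff replicates differed from each other more than the Day4 replicates did. Day4 means were 2.11-fold and 2.50-fold those of Undiff. The log2 fold change was 1.00 (SE 0.37, 95% interval 0.27 to 1.72, adjusted p = 0.0593) with Direct RNA and 0.98 (SE 0.44, 95% interval 0.12 to 1.84, adjusted p = 0.154) with cDNA, so Id1 was not called with either kit. The call turned on the scaling and the test. DESeq2 with size factors from total reads called Id1 in both kits (adjusted p = 0.0334 and 0.0178), as did edgeR (adjusted p = 0.00996 and 0.0416).

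Id4 (ENSMUSG00000021379.2, chr13:48261228-48266026, plus strand), the family member known from neural precursors, had 1 to 3 reads in each of the 8 libraries. Its highest level was 7.06 CPM in Direct RNA Day4 replicate 1, from 2 reads, and its lowest was 0.481 CPM in cDNA Day4 replicate 2, from 1 read. No fold is given because both states were at or under the floor. Exons of A330033J07Rik and Gm49291 lie opposite those of Id4.

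**Figure D2:**
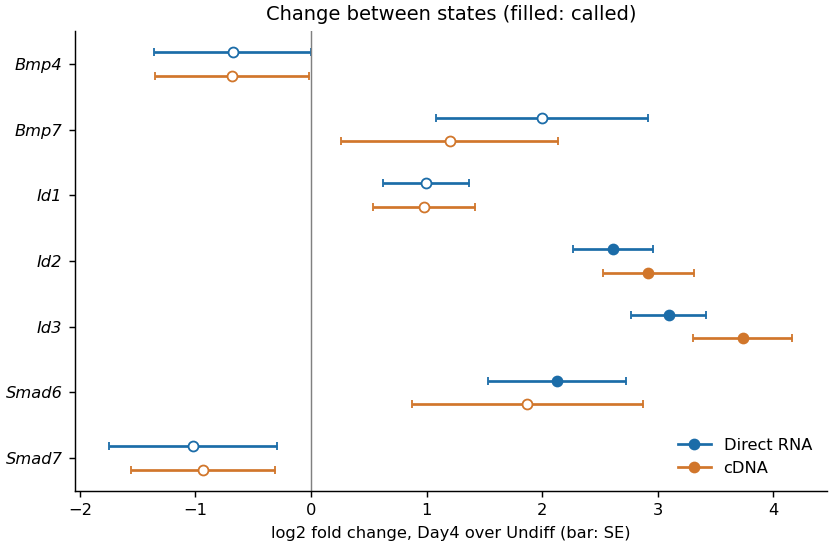
Log2 fold change of Day4 over Undiff from DESeq2, with its SE as bars, for the 7 genes with a mean normalized count of 5 or more, in blue for Direct RNA and orange for cDNA; filled points were called. Only Id2 and Id3 are filled in both kits, and Bmp4 and Smad7 lie below 0 with bars that reach or come near it.

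The make-up of the Id family was read from the same counts. Per kb of transcript, Id1 took 61.4% and 40.9% of the Id reads in Direct RNA Undiff and 23.6% and 19.1% in Day4. With cDNA the share of Id1 was 56.6% and 27.0% in Undiff and 10.3% and 9.76% in Day4. Id3 held the larger share in Day4, at 53.9% and 62.7% with Direct RNA and 73.5% and 72.2% with cDNA, from 26.9% and 39.3% and from 28.5% and 53.3% in Undiff. Id2 took between 11.5% and 22.4% of the reads per kb in every library. The states did not overlap for Id1 or Id3 in either kit, and Id3 led Id1 in all Day4 libraries. In Undiff, Id1 led Id3 in 3 of the 4 libraries per kb and in 2 of the 4 in reads as counted. No test was run on these shares. In reads as counted, without a correction for length, the Id1 share was 55.2% and 34.6% in Direct RNA Undiff (95% exact intervals 47.0% to 63.2% and 29.6% to 39.9%) and 19.4% and 16.0% in Day4. The sum over the 4 genes went from 442 and 376 CPM in Direct RNA Undiff to 1997 and 2504 CPM in Day4, and from 332 and 440 CPM in cDNA Undiff to 4154 and 3734 CPM in Day4. The lower share of Id1 in Day4 went with a CPM of Id1 that was higher in every Day4 library than in every Undiff library of its kit, beside larger differences for Id2 and Id3.

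**Figure D3:**
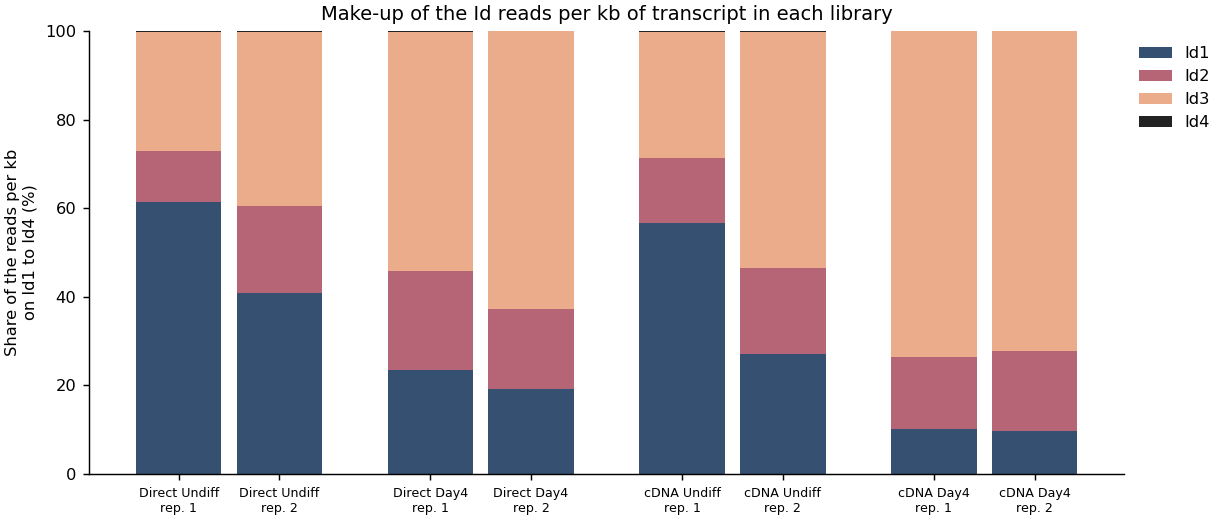
Share of each Id gene in the reads per kb of transcript on Id1 to Id4 (%), as stacked bars, 1 bar per library. The Id1 segment is shorter and the Id3 segment longer in the Day4 bars of both kits, with Id1 at 9.76% to 23.6% in Day4 against 27.0% to 61.4% in Undiff.

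The inhibitory Smads did not move together. Smad6 (ENSMUSG00000036867.7, chr9:63953076-64022059, minus strand), which acts mainly on BMP receptor signalling, had 14.3 and 43.0 CPM in Direct RNA Undiff (5 and 39 reads) and 219 and 99.0 CPM in Day4 (62 and 73 reads). With cDNA it had 1.05 and 3.35 CPM in Undiff (1 and 7 reads) and 12.9 and 12.5 CPM in Day4 (17 and 26 reads). The states did not overlap in either kit, and the ratio of the means was 5.54 with Direct RNA. With cDNA the ratio was 5.77, but its Undiff mean of 2.20 CPM lay under the floor of 2.30 CPM. Smad6 was called with Direct RNA at 2.13 on the log2 scale (SE 0.59, 95% interval 0.96 to 3.30, adjusted p = 0.00546). That call ended without Direct RNA Undiff replicate 1 (log2 fold change 1.52, adjusted p = 0.324) and without Direct RNA Day4 replicate 1 (1.49, adjusted p = 0.497). With cDNA the log2 fold change was 1.87 (SE 1.00, 95% interval -0.09 to 3.83, adjusted p = 0.274) and was not called, while edgeR called it (2.01, adjusted p = 0.0171).

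Smad7 (ENSMUSG00000025880.11), which acts on both BMP and TGF-beta receptors, had 54.5 and 67.2 CPM in Direct RNA Undiff (19 and 61 reads) and 56.5 and 10.8 CPM in Day4 (16 and 8 reads). With cDNA it had 20.03 and 76.6 CPM in Undiff (19 and 160 reads) and 22.8 and 39.0 CPM in Day4 (30 and 81 reads). The states overlapped in both kits. The log2 fold change was -1.02 (SE 0.73, 95% interval -2.44 to 0.41, adjusted p = 0.510) with Direct RNA and -0.93 (SE 0.62, 95% interval -2.16 to 0.29, adjusted p = 0.452) with cDNA. edgeR called Smad7 lower with Direct RNA (log2 fold change -1.30, adjusted p = 0.0244), and without cDNA Undiff replicate 2 the cDNA value turned to 0.17. The Direct RNA value was -2.21 without Day4 replicate 1 and -0.22 without Day4 replicate 2, the library with 8 reads. Per kb of transcript, Smad6 took 27.5% and 47.9% of the reads on both genes in Direct RNA Undiff and 84.8% and 92.9% in Day4. With cDNA that share was 7.05% and 5.93% in Undiff and 44.9% and 31.6% in Day4, so it was higher in Day4 with both kits and Smad7 stayed the larger of the pair with cDNA.

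The other genes of the pathway were examined in 6 lists with 60 genes, also chosen with earlier results of these data known. With Direct RNA 29 of the 60 had the minimum mean and 11 were called higher and 0 lower, where 9.54% of all genes with that mean were called higher and 7.67% lower. With cDNA 24 had it, 7 were called higher and 1 lower, where 8.69% of all genes were called higher and 9.24% lower. Of the 13 secreted and membrane antagonists, 4 had the minimum mean and the same 4, Fstl1, Twsg1, Bmper and Bambi, were called higher in both kits. Bmper, with no read in Undiff, reached that mean through its Day4 libraries alone. Gdf6, Rgma, Msx1, Hey1, Bmpr2 and Tcf12 had 0 to 7 reads in each Direct RNA Undiff library and reached it there mostly or wholly through Day4, as did Hey1 with cDNA (3 reads in each Undiff library), so the counts of these lists are descriptions. The other 9 antagonists, Nog, Chrd and Grem1 among them, were below the minimum mean. Over the antagonists with a read the median log2 fold change was 1.48 with Direct RNA (11 genes) and 1.52 with cDNA (10 genes). Over all genes with a read it was 0.06 and 0.04.

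Bmper, a secreted protein that binds BMPs, had no read in the Undiff libraries. It had 56.5 and 70.5 CPM in Direct RNA Day4 (16 and 52 reads) and 19.7 and 26.5 CPM in cDNA Day4 (26 and 55 reads). Against the floor of 3 reads per library this was at least 10.6-fold higher with Direct RNA and at least 10-fold higher with cDNA (adjusted p = 3.77e-05 and 2.50e-04). Bambi, a receptor-like membrane protein without a kinase that dampens BMP and TGF-beta signalling and is also a BMP target, had 17.2 and 18.7 CPM in Direct RNA Undiff and 205 and 226 CPM in Day4. In cDNA libraries Bambi had 8.43 and 10.5 CPM in Undiff and 137 and 194 CPM in Day4. The log2 fold changes of Bambi were 3.35 (SE 0.52, adjusted p = 1.08e-08) and 3.67 (SE 0.52, adjusted p = 1.40e-10).

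Fstl1, a secreted follistatin-like protein that can hold back BMP4, had 25.8 and 34.2 CPM in Direct RNA Undiff and 430 and 319 CPM in Day4. With cDNA it had 53.8 and 91.0 CPM in Undiff and 397 and 1188 CPM in Day4, replicates that differed widely. Fstl1 had log2 fold changes of 3.39 (SE 0.44, adjusted p = 1.65e-12) and 3.004 (SE 0.48, adjusted p = 4.14e-08). Twsg1, a secreted modulator that works with chordin, had 23.0 and 13.2 CPM in Direct RNA Undiff and 138 and 119 CPM in Day4. In cDNA it had 3.16 and 6.70 CPM in Undiff and 26.6 and 41.4 CPM in Day4. The log2 fold change of Twsg1 was 2.68 (SE 0.59, adjusted p = 1.89e-04) with Direct RNA and 2.25 (SE 0.74, adjusted p = 0.0250) with cDNA. Bambi and Fstl1 were called without any 1 library of a kit. Leaving out a library leaves 1 library in that group, which is then taken to vary like the other group. Bmper lost its call without Direct RNA Undiff replicate 2 (log2 fold change 4.41, adjusted p = 0.0552), cDNA Undiff replicate 2 (4.28, adjusted p = 0.0595) or cDNA Day4 replicate 2 (4.69, adjusted p = 0.0518). Twsg1 lost it without Direct RNA Undiff replicate 2 (2.19, adjusted p = 0.204) or Day4 replicate 2 (2.59, adjusted p = 0.0821), and without any 1 cDNA library (1.84 to 2.61, adjusted p between 0.157 and 0.658).

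Of the receptors and co-receptors, Bmpr2, the type II receptor of BMPs, was called higher with both kits. It had 8.61 and 1.10 CPM in Direct RNA Undiff and 95.3 and 29.8 CPM in Day4, and 4.22 and 4.79 CPM in cDNA Undiff and 66.8 and 97.2 CPM in Day4. Its log2 fold change was 3.38 (SE 0.93, adjusted p = 0.00469) with Direct RNA and 3.67 (SE 0.63, adjusted p = 3.79e-07) with cDNA. The Direct RNA call ended without Undiff replicate 2 (2.25, adjusted p = 0.514) or Day4 replicate 1 (1.93, adjusted p = 0.631). In that list 2 of 8 measured members were called higher with Direct RNA, Bmpr2 and the co-receptor Rgma, and 1 of 3 with cDNA, beside 9.54% and 8.69% of all genes. Among the Smads and their partners 0 of 8 were called with Direct RNA and 1 of 7 with cDNA, where Tob1, an antiproliferative protein that binds Smads, fell (log2 fold change -1.78, SE 0.54, adjusted p = 0.0134), beside 9.24% of all genes called lower with cDNA and 7.67% with Direct RNA.

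Among other known targets, Hey1, a bHLH repressor downstream of Notch and BMP, was called higher with both kits. It had 8.61 and 2.20 CPM in Direct RNA Undiff and 261 and 174 CPM in Day4, and 3.16 and 1.44 CPM in cDNA Undiff and 49.3 and 40.0 CPM in Day4. Its log2 fold change was 5.17 (SE 0.70, adjusted p = 3.23e-11) with Direct RNA and 3.80 (SE 0.80, adjusted p = 6.18e-05) with cDNA. The cDNA call ended without Undiff replicate 2 (3.02, adjusted p = 0.0517) or Day4 replicate 1 (3.17, adjusted p = 0.0706). The list had 2 of 5 measured members called higher in each kit, Msx1 and Hey1 with Direct RNA and Hey1 and Gata2 with cDNA, beside 9.54% and 8.69% of all genes. Msx1, a homeobox factor, had 13 and 24 reads in Direct RNA Day4 and 0 and 1 read in cDNA Day4.

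The remaining lists were small. Of the other ligands only Gdf6 had the minimum mean, and it had no read in Direct RNA Undiff and 22 and 29 reads in Day4, at least 9.8-fold above the floor (adjusted p = 9.29e-05). With cDNA Gdf6 had 1 and 0 reads in Undiff and 7 and 20 in Day4 and was not called (adjusted p = 0.184). Of the 8 bHLH partners of Id proteins, 3 had the minimum mean with Direct RNA and 4 with cDNA. Of these, 2 of 3 were called higher with Direct RNA, Tcf3 (log2 fold change 1.23, SE 0.36, adjusted p = 0.00869) and Tcf12 (3.56, SE 0.68, adjusted p = 7.13e-06), and 0 of 4 with cDNA, beside 9.54% and 8.69% of all genes. With cDNA the value of Tcf12 was 2.66 (SE 0.97, adjusted p = 0.0514). Gdf6, Rgma, Tob1, Msx1, Gata2, Tcf3 and Tcf12 were called with 1 kit and are named here after their values were seen.

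**Figure D4:**
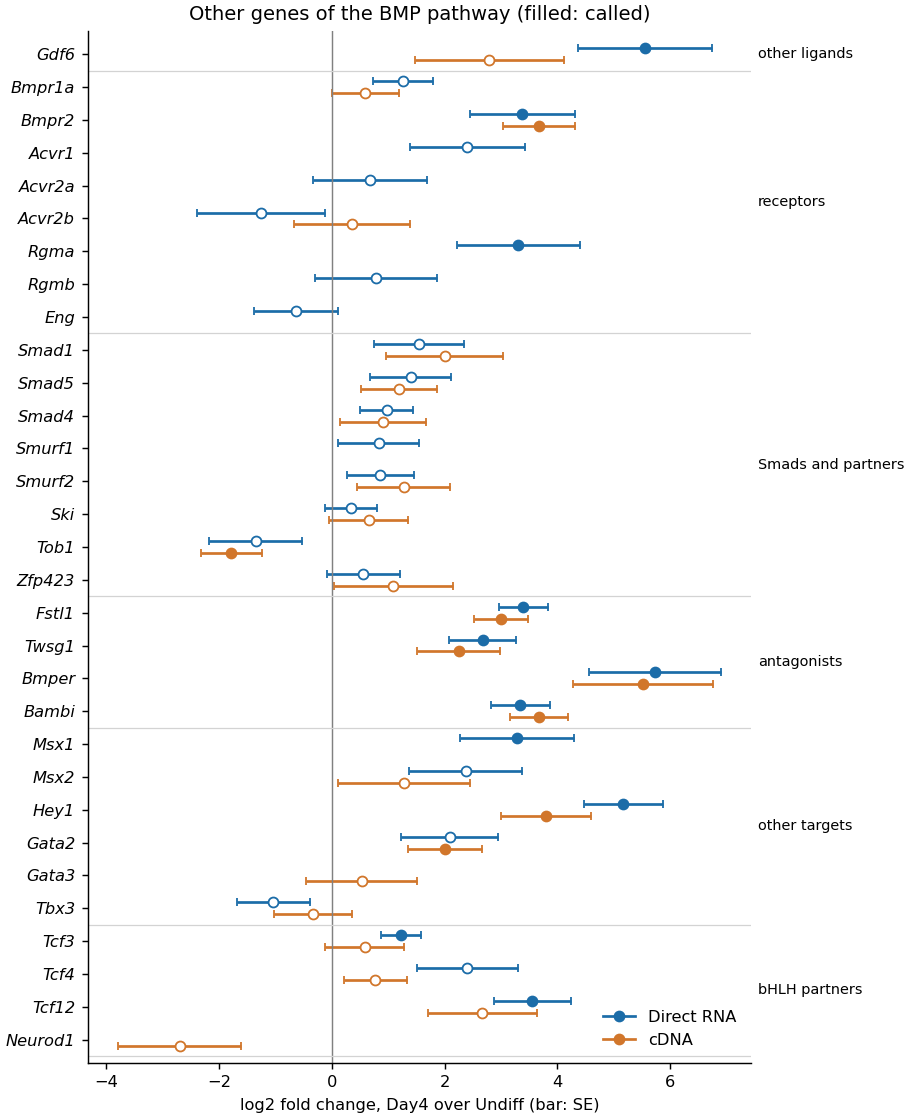
Log2 fold change of Day4 over Undiff from DESeq2, with its SE as bars, for the other genes of the pathway with a mean normalized count of 5 or more, grouped by list, in blue for Direct RNA and orange for cDNA; filled points were called. The 4 antagonists are filled in both kits, and Tob1 is the only gene called lower.

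Markers of other cell types moved with the state. The 6 markers of visceral and primitive endoderm, which itself carries BMP signalling, summed to 3.31 to 5.74 CPM in Direct RNA Undiff and 667 to 988 CPM in Day4, with Afp, Ttr, Apoa1 and Gata6 at 0 in Undiff. With cDNA they summed to 0.479 to 7.38 CPM and 273 to 278 CPM. Sox17 was not called in either kit, and Afp (adjusted p = 0.0501) and Apoa1 (adjusted p = 0.321) were not called with cDNA. The 4 markers of fibroblasts and mesenchyme went from 7.71 to 14.3 CPM in Undiff to 381 to 1005 CPM in Day4 with Direct RNA and from 4.31 to 9.49 CPM to 84.97 to 102 CPM with cDNA. Col1a1, Col1a2 and Pdgfra rose in both kits, and Thy1 was at -1.18 and -2.85 on the log2 scale and was not called (adjusted p = 0.783 and 0.163). Summed, the 3 endothelial markers overlapped between states with Direct RNA, at 61.7 to 118 CPM and 74.1 to 126 CPM. With cDNA the sums overlapped too, at 32.7 to 34.0 CPM and 33.4 to 46.7 CPM. Most of the Undiff sums was Pecam1, with means of 88.25 and 32.6 CPM against 34.3 and 23.5 CPM in Day4. Cdh5 went from 0 in Undiff to means of 18.6 and 6.85 CPM in Day4. It was not called (log2 fold change 3.87 and 3.66, adjusted p = 0.0373 and 0.0761), with Direct RNA because it was below the minimum mean. Pecam1 was not called in either kit, while Kdr rose with Direct RNA (log2 fold change 4.40, adjusted p = 0.00136) and was not called with cDNA (2.76, adjusted p = 0.133). Early mesoderm markers were at or below 5.74 CPM in every library, with T and Mesp1 at 0 in Day4. The 5 neural markers summed to 155 to 178 CPM in Undiff and 60.0 to 82.7 CPM in Day4 with Direct RNA and to 73.8 to 175 CPM and 41.4 to 46.3 CPM with cDNA. Of these, Tubb3 fell in both kits (log2 fold change -3.37 and -2.41, adjusted p = 1.64e-06 and 1.28e-04), and Nes was at 1.99 and 2.24 and was not called (adjusted p = 0.113 and 0.160). The part of these cell types in the levels of the Id genes, Smad6 and the antagonists was not tested.

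Whether a kit changed the size of a state effect was tested as an interaction over all 8 libraries. None of the 10 members was called with DESeq2, none had a p of 0.05 or less before adjustment and none was called with edgeR, and over all genes tested 0.0116% were called. The difference of the log2 fold changes, cDNA minus Direct RNA, was 0.67 for Id3 (SE 0.56, 95% interval -0.43 to 1.78), 0.31 for Id2 (SE 0.51, 95% interval -0.69 to 1.31) and -0.17 for Smad6 (SE 1.10, 95% interval -2.32 to 1.98). Smad6, called with Direct RNA and not with cDNA, was thus not shown to respond differently between kits, and the sign of its value changed in several alternatives.

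The level of a member did differ by kit. Smad6 was lower with cDNA, with all 4 cDNA libraries (1.05 to 12.9 CPM) below all 4 Direct RNA libraries (14.3 to 219 CPM). Its log2 fold change, cDNA over Direct RNA with state as a covariate, was -2.80 (SE 0.46, 95% interval -3.71 to -1.90, adjusted p = 1.46e-08), and it was -3.50 with size factors from total reads. In this comparison 26.6% of all genes with the minimum mean were called lower with cDNA and 24.7% higher, so a kit difference was common. The size factors of DESeq2 lie 0.75 on the log2 scale away from total reads between the kits. On that scale Id2 and Id3 were called higher with cDNA (1.09, SE 0.21, adjusted p = 1.95e-06, and 1.43, SE 0.29, adjusted p = 5.02e-06), but with size factors from total reads the values were 0.36 (adjusted p = 0.229) and 0.71 (adjusted p = 0.0467), below the threshold of 1, and neither was called. Bmp4, Id1 and Smad7 were not called under either scaling and changed sign from 0.25, 0.41 and 0.52 to -0.44, -0.36 and -0.17. Bmp7 was at -0.57 and not called, and with total reads it was at -1.26 and called. The study describes 2 biological replicates of each state, whose RNA was used for both kits. The 8 libraries, treated as separate samples in this test and in the interaction, are therefore not independent. These p-values describe the kits on these cultures only.

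**Figure D5:**
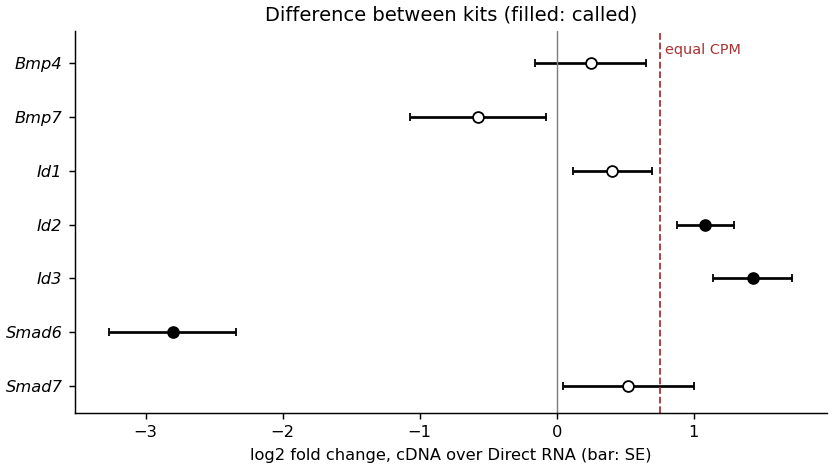
Log2 fold change of cDNA over Direct RNA from DESeq2, with its SE as bars, for the 7 genes with a mean normalized count of 5 or more; filled points were called, and the dashed line at 0.75 marks equal CPM between kits. Smad6 lies far to the left of both lines, while Id1, Bmp4 and Smad7 lie between 0 and the dashed line.

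The genes whose levels ran most like those of Id1 and of Bmp4 over the 8 libraries were found by the Pearson r of log2(CPM + 1), among 8887 genes with at least 10 reads on average. For Id1 they were Serpinf1 (r = 0.985), Bckdk (r = 0.981) and Fdft1 (r = 0.980), and of the members Bmp7 came to 0.894 (rank 217), Id2 to 0.783 (rank 903), Id3 to 0.758 (rank 1075), Smad6 to 0.594, Bmp4 to -0.32 and Smad7 to -0.54. For Bmp4 they were Arih2 (r = 0.967), Ddx24 (r = 0.962) and Ercc8 (r = 0.961), and Smad7 came to 0.518 (rank 2005), Smad6 to 0.254 and Bmp7, Id1, Id2 and Id3 to between -0.32 and -0.12. The 8 points share states, kits and depths, so the coefficients are descriptions with no p-value.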

How the data were processed

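The deposited files hold raw read counts for each gene symbol, obtained by the authors with htseq-count on the iGenomes UCSC annotation of mm10 after minimap2 alignment without secondary alignments. For Direct RNA, base calling used albacore or Guppy, Poreplex removed adapters and chimeras, and counting was by strand. The cDNA reads had been trimmed with porechop, and the methods name only Direct RNA gene counts as strand-specific. The deposited counts carried no normalization, and the 5 counters of reads on no gene were kept out of library sizes and tests.

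The 10 members and the gene lists were chosen with earlier results of these data known. States were compared with DESeq2 1.42.0 (R 4.3.3), separately for each kit, with shrunken log2 fold changes, the Wald test, no Cook's distance cutoff and no independent filtering, and p-values were adjusted by Benjamini-Hochberg over all genes with a read. The interaction of kit and state was fitted without shrinkage over all 8 libraries, with the adjusted p-value as its only threshold, and the kit effect over all 8 with state as a covariate. The alternatives were edgeR 4.0.16 (quasi-likelihood test with TMM factors), TMM size factors in DESeq2, no shrinkage, Cook's cutoff and independent filtering on, a minimum of 10 reads, leaving out each library, a replicate block and, added after the data were seen, size factors from total reads and crossed replicate numbers. Adjusted p-values are from DESeq2 unless edgeR is named. The fits were also run on simulated counts, with the same dispersion for every gene and changes set only in genes with more reads. Genes with few reads were thus not covered.

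Named genes were the 10 members, the genes of the pathway lists called in one direction with both kits, and the 3 genes most like Id1 and like Bmp4. Intervals of log2 fold changes come from the DESeq2 standard errors. The exact intervals of shares and the floor of 3 reads cover counting error only. With cDNA, reads after PCR are also not independent molecules. The chi-square per degree of freedom between replicates lay between 2.68 and 14.9, so every library was kept as a sample of its own. Coordinates, exon overlaps and the length of the longest transcript came from GENCODE vM21 on GRCm38, the assembly mm10 also names. Python 3.11.15 and pandas 2.3.3 were used for tables and matplotlib 3.10.9 for plots.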

Additional observations from a re-analysis of the deposited data

How the results depend on the processing

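The calls of Id2 and Id3 between states held in every alternative and without any 1 library, with both kits. With edgeR the number of members called was 6 with Direct RNA (Bmp7, Id1 and Smad7 added) and 4 with cDNA (Id1 and Smad6 added), against 3 and 2 with DESeq2. Over all genes, edgeR called 3257 with Direct RNA and 3348 with cDNA, against 1660 and 1842. Leaving out 1 library gave 393 to 797 and 709 to 1020. The interaction called 2 genes, and 14 with edgeR, 1 with TMM size factors or total reads, and 0 to 13 without 1 library. The replicate block called 843 genes with Direct RNA and ended the Smad6 call there (log2 fold change 2.11, adjusted p = 0.0671) and those of Bmper (1.46, adjusted p = 0.894) with Direct RNA and Twsg1 (2.20, adjusted p = 0.111) with cDNA, and changed no other call of a member or of a pathway gene called with both kits. The states share only a number, and whether a number marks 1 culture across kits is not stated. The deviations of same-numbered libraries correlated at 0.21 between states with Direct RNA, 0.50 with cDNA, 0.12 between kits in Undiff and -0.42 in Day4 over 1395 genes. With the Day4 numbers crossed, the interaction called 1 gene. In the interaction the sign of Smad6 turned, to 0.0254 with the replicate block, and values without 1 library ran from -1.29 to 0.85 for Smad6, -0.63 to 1.19 for Bmp4, -0.49 to 0.51 for Id1 and -0.69 to 1.62 for Smad7. Signs also turned, without 1 library, for Bmp4 (-1.35 to 0.51) and Smad7 (-1.58 to 0.17) with cDNA and for Bmp4 between kits (-0.18 to 0.57). Between kits, size factors from total reads gave -0.44 for Bmp4, -0.36 for Id1 and -0.17 for Smad7. The cause was not tested. With 1 to 7 reads in many libraries, depth limits what can be said of Bmp2, Bmp5, Id4 and the Undiff level of Smad6 with cDNA.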
